A study of Homo sapiens with 26 samples.

Results

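The comparison set 3 libraries lettered A to H against 6 libraries lettered I to Z, all from the same 3 control lines of MDA-MB-231, a human line from triple-negative breast cancer. The libraries belong to the comparison by their titles, and no measured value enters that rule. They are 9 of the 26 RNA sequencing libraries of the series and 3 of its 9 lines. The A-H set (the libraries lettered A to H) holds library E of Empty, C of NES-Empty and G of NLS-Empty. The I-Z set holds I and J of Empty, K and L of NES-Empty, and M and N of NLS-Empty. Each line is a derivative of MDA-MB-231Luc that carries the vector pLUTZ mRFP and the guide sgCon and holds no AURKA cDNA. In NES-Empty and NLS-Empty the vector is labelled NES empty and NLS empty, the usual names of nuclear export and nuclear localization signals. All 9 libraries are labelled with passages 19 to 20 and with growth in doxycycline under normoxia. Each library was made from 500 ng of total RNA. The labels do not say what the letters stand for, or whether libraries of a line come from separate cultures, so p-values may measure technical spread.

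The other lines used here are 5 AURKA clones with libraries in both sets, 15 libraries in all. They are WT-AURKA c1, NES-AURKA c1, NES-AURKA c2, NLS-AURKA c2 and NLS-AURKA c3, each a single clone at passages 32 to 35, in the same vector and medium. The WT and NES clones carry the guide sgAURKA2 and a MUT2 AURKA cDNA, and the NLS clones the guide sgAURKA1 and a MUT1 AURKA cDNA. They share no library with the control lines. The study as a whole asked how the compartment of Aurora-A kinase changes the transcriptome. The comparison described here asks how far libraries of 1 genotype differ between the letter sets.

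Most polyadenylated RNA in a cell is messenger RNA, and short, abundant housekeeping messages such as those of ribosomal proteins make up much of it. Long nuclear RNAs such as MALAT1, which has a structured 3′ end in place of a poly(A) tail, and NEAT1, which builds paraspeckles, stay in the nucleus. Other transcripts track the state of the culture: TXNIP and its relative ARRDC4 are activated by the glucose-sensing factors MondoA and ChREBP, metallothionein genes by zinc through the factor MTF1, and immediate early genes by serum and stress.

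Promoter sequence is shown for the gene that differed most between the sets, TXNIP, and for metallothionein genes that differed together. Each is the 250 bases before the gene's start in RefSeq (GRCh38.p14), 5′ to 3′ on the gene's strand, with matches in capitals. The table itself was made on hg19, so these coordinates belong to the RefSeq build. TXNIP lies on the minus strand at chr1:145996580-145996829, MT2A on the plus strand at chr16:56608334-56608583 and MT1X on the plus strand at chr16:56682220-56682469.
TXNIP: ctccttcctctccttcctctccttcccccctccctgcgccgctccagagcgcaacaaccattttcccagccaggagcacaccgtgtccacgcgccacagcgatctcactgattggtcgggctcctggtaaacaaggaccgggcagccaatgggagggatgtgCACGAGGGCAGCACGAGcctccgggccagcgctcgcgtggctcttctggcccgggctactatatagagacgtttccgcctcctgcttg
MT2A: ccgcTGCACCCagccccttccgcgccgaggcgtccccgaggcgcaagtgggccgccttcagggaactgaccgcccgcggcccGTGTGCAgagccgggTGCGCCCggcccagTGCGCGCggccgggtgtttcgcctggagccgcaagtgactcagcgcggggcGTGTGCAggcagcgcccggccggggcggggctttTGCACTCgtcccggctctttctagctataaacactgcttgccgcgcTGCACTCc
MT1X: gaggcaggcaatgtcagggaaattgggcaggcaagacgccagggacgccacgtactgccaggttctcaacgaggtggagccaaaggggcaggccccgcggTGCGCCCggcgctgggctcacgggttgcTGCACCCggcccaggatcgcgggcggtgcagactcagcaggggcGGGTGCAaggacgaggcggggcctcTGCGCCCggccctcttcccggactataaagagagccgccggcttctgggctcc
In TXNIP the capitals mark CACGNG, then 5 bases, then CNCGNG, a form of the carbohydrate response element, searched on both strands. It occurred 1 time in 1 of the 2 TXNIP promoters listed, and 0.424% of 35116 promoters hold it. The window of ARRDC4 held no match of these letters. In the metallothionein genes the capitals mark TGCNCNC, the core of the metal response element, also searched on both strands. It is short, and 49.1% of promoters hold at least 1 match. MT2A had 7 matches, a number reached by 0.0854% of promoters, and MT1X had 4, reached by 1.77%. A match is a description of the letters and not a site.

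Depth was estimated from the RPKM steps of low genes at 16700000 to 20300000 reads for the A-H libraries and 13900000 to 16700000 for the I-Z libraries. RPKM is a read number scaled to transcript length and library size. The value of 1 read on a transcript of 1 kb was 0.0492 to 0.0600 RPKM in the A-H and 0.0599 to 0.0721 RPKM in the I-Z libraries. Libraries I and J of Empty stood apart from the other I-Z libraries in the clone-named row CH507-513H4.3, the largest row of the table. The labelled cell type was visible in both sets. Its markers, among them the intermediate filament gene VIM, the receptor kinase gene AXL and the galectin gene LGALS1, were all above the test filter (8 of 8). Their summed level was 935 to 954 RPKM in the A-H and 1630 to 1696 RPKM in the I-Z libraries. In the marker lists of other cells PTPRC, CD3E, CDH5, VWF, COL1A2, COL3A1 and HBB were under 0.1 RPKM in all 9 libraries, and so were ESR1 and PGR of the luminal list. Other members of these lists were well above that, among them CD68 at 27.2 to 50.2 RPKM, ESAM at 18.3 to 29.5 RPKM and the luminal KRT8 at 47.7 to 84.6 RPKM. AURKA itself, which no guide targets in these lines, stood at 51.8, 43.1 and 34.05 RPKM in the A-H libraries of Empty, NES-Empty and NLS-Empty and at 57.1 to 68.9 RPKM in the I-Z libraries. The difference was -0.58 (SE 0.08) on the log2(RPKM + 1) scale, with a limma adjusted p of 0.000217. It did not pass once libraries were rescaled to the same protein-coding total (-0.16, adjusted p = 0.14) or the trend with transcript length and GC content was removed (-0.17, adjusted p = 0.124).

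The letter set was the leading axis among the control libraries. Principal component 1 carried 86.59% of the variance and separated the 3 A-H libraries from the 6 I-Z libraries. Component 2 carried 4.265% and set the 3 Empty libraries apart from the others. Requiring 1 RPKM or more in at least 2 of the 9 libraries left 11404 genes to test. With limma on log2(RPKM + 1), pairing the sets within each line, 8946 genes were called (78.4%) at an adjusted p under 0.05. Of these 3433 were higher in the A-H libraries (30.1% of genes tested) and 5513 lower (48.3%). A difference of 1 or more on the log2 scale was found in 592 genes on the higher side (5.19%) and 698 on the lower (6.12%). The values of A-H and I-Z libraries did not overlap in 8084 genes (70.9%), so a lack of overlap in a gene named below is common.

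**Figure D1:**
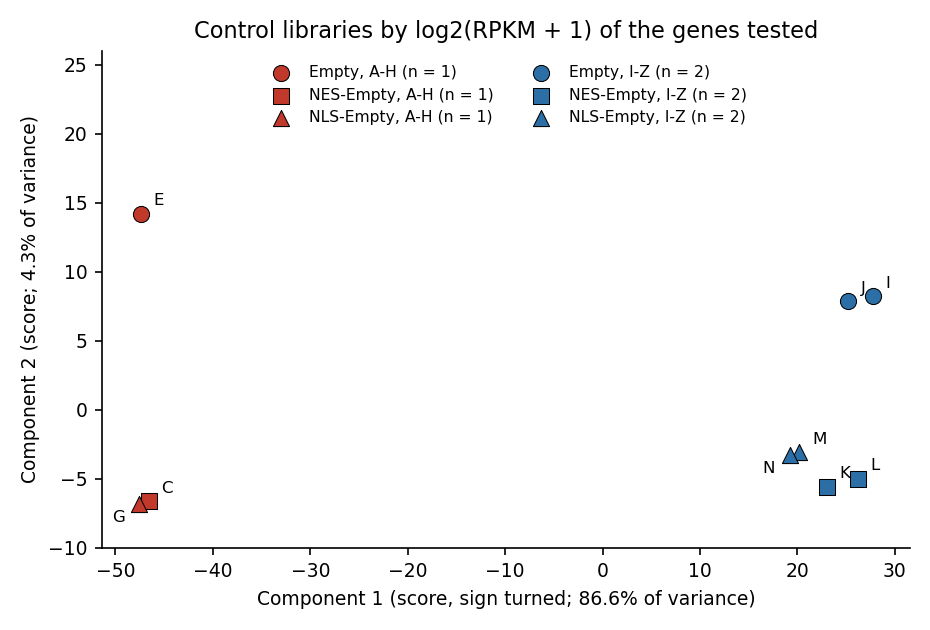
Principal components of the 9 control libraries on log2(RPKM + 1) over the 11404 genes tested, with component 1 (86.59% of variance, sign turned) on the x axis and component 2 (4.265%) on the y axis. Red symbols are A-H and blue symbols I-Z libraries, shapes are lines and letters are libraries: the A-H libraries lie on the left and the I-Z libraries on the right, and Empty lies above the other lines in both sets.

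The scale of these differences depends on the total that values are set against. The median gene differed by -0.15 as deposited. Rescaling to the protein-coding total shifted the median by 0.34, to 0.19, and rescaling by median ratios shifted it by 0.14, to -0.0084. Called genes were 38.37% higher as deposited, 65.99% higher on the protein-coding total 49.84% higher on median ratios and 50.29% higher with the trend of transcript length and GC content removed. Directions below are as deposited. Each list is read beside the median of all genes, and its counts beside the 30.1% higher and 48.3% lower of all genes tested. A list median on the protein-coding total is read beside 0.19, so a change of sign there can come from the shift of all genes. With the length and GC trend removed the median of all genes was 0.0037, with 37.6% higher and 37.2% lower.

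RNA classes took unequal shares of the 2 sets. Protein-coding genes held 81.9%, 83.4% and 82.4% of the RPKM sum in the A-H libraries of Empty, NES-Empty and NLS-Empty, against 90.5% to 95.9% in the I-Z libraries. The sets did not overlap. The row CH507-513H4.3, which carries a clone name that the annotation used here does not resolve, held 13.5%, 12.3% and 12.99% in the A-H libraries. In the I-Z libraries it held 0.957% in library I, 3.74% in library J and 6.25% to 6.54% in the other 4. Without Empty its mean difference was 6.25 percentage points, against 7.88 with it. The mean difference of the protein-coding share was -9.37 percentage points, so this row alone holds much of it. Other clone-named rows held 2.76% to 3.04% in the A-H and 1.53% to 1.60% in the I-Z libraries, and long noncoding RNAs 0.716% to 0.805% and 0.394% to 0.461%. Pseudogenes went the other way, with 0.448% to 0.454% in the A-H and 0.519% to 0.569% in the I-Z libraries. Small noncoding RNAs overlapped, at 0.220% to 0.571% in the A-H and 0.310% to 0.447% in the I-Z libraries, with the highest value in library G. More rows had a value above 0 in the A-H libraries (22229 to 22943) than in the I-Z libraries (19707 to 19974), and more rows reached 1 RPKM (10843 to 10928 against 10288 to 10427). The A-H libraries were on the whole deeper. Library C of the A-H set and library J of the I-Z set, from another line, both had an estimated 16700000 reads. They had 22229 and 19874 rows above 0. Whether depth set the number of rows was not tested. An exact permutation test that moves the A-H letter within lines gave p = 0.037, the smallest that 27 arrangements allow, for 13 of 14 such quantities and p = 1 for the small noncoding share. Adjusted over the 14 quantities, the 13 values were 0.0399. The 14 quantities are not separate results, since shares of 1 sum move together and some contain others. In the AURKA clones the same exact permutation test, two-sided as in the control lines, gave p = 0.00412, the smallest of 243 arrangements, for 11 of the 14, among them the protein-coding share (82.9% in A-H, 91.6% in I-Z on average) and the share of CH507-513H4.3 (12.997% and 5.616%).

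Differences followed transcript length. Among 10359 protein-coding genes with a length in the annotation, the quintile (a 20% share of genes by rank) with the shortest transcripts had a median difference of -0.62 and the quintile with the longest had 0.30, with -0.35, -0.16 and -0.01 between them. All 3 control lines showed this order, from -0.68, -0.61 and -0.57 in the shortest quintile to 0.30, 0.34 and 0.25 in the longest for Empty, NES-Empty and NLS-Empty. In the shortest quintile 8.59% of genes rose and 79.5% fell, and in the longest 58.8% rose and 19.8% fell. Spearman's rho between length and difference was 0.513 across genes, which share libraries and depth and are not replicates. GC content alone gave a rho of 0.0184. Within the longest quintile the median climbed with GC content, from 0.14 in the lowest to 0.83 in the highest GC quintile, and within the shortest quintile it was -0.63 and -0.51. The AURKA clones showed the same order by length, with medians of -0.57, -0.29, -0.14, 0.03 and 0.31. When the length and GC trend was removed within each library, a step added after the data were seen, 3898 protein-coding genes were called higher (37.6%) and 3853 lower (37.2%), of them 460 higher by 1 or more (4.44%) and 136 lower by as much (1.31%). What set the length trend was not tested.

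**Figure D2:**
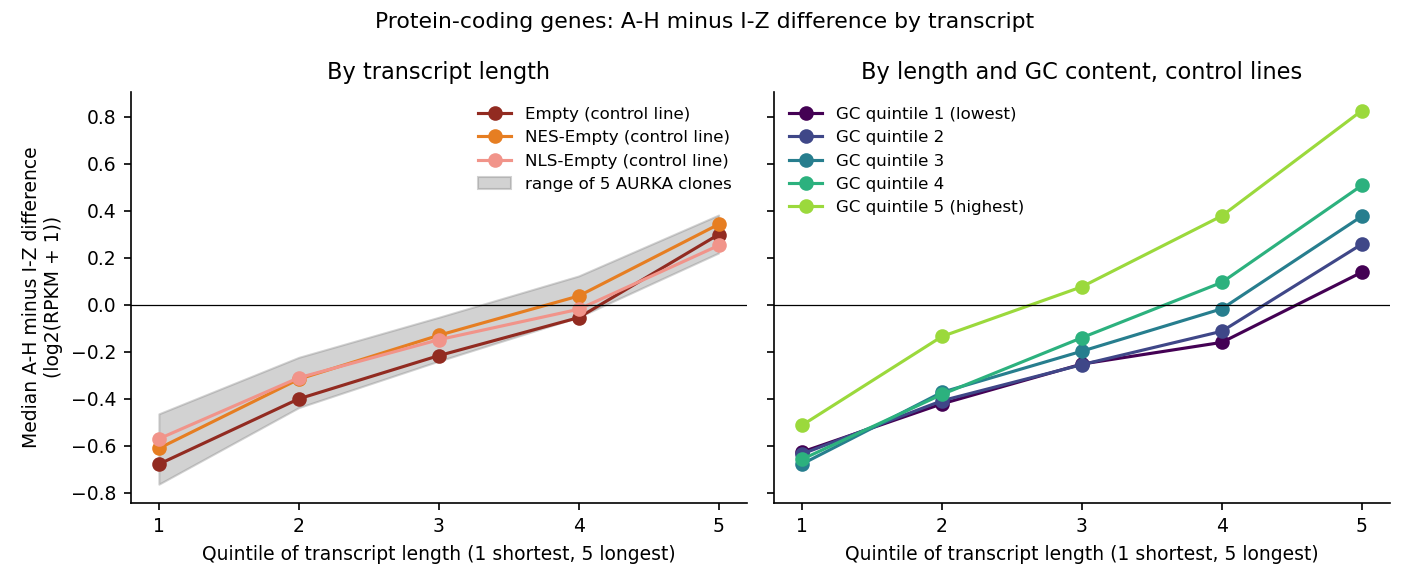
Median A-H minus I-Z difference (y axis, log2(RPKM + 1)) of protein-coding genes by quintile of transcript length (x axis). The left panel draws the control lines as lines and the range of the 5 AURKA clones as a grey band, and the right panel splits the control lines' genes by quintile of GC content: medians climb from -0.62 in the shortest to 0.30 in the longest quintile, and within the longest quintile reach 0.83 at the highest GC content.

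Nuclear noncoding RNAs were among the rows with the highest differences. MALAT1 stood at 561, 452 and 451 RPKM in the A-H libraries of Empty, NES-Empty and NLS-Empty, against 12.8, 16.3, 18.7, 22.3, 22.0 and 21.1 RPKM in libraries I to N. Every A-H library lay above every I-Z library, and the means differed 25.9-fold, a log2 difference of 4.64 (SE 0.15) with a limma adjusted p of 2.48e-07. NEAT1 had 19.7, 13.01 and 12.3 RPKM in the A-H and 0.357, 0.382, 0.485, 0.491, 0.542 and 0.609 RPKM in the I-Z libraries, again without overlap (3.41, SE 0.14, adjusted p = 5.56e-07). In the AURKA clones the 2 RNAs differed by 3.76 (adjusted p = 0.000112) and 3.16 (adjusted p = 0.000485). NORAD, a cytoplasmic RNA that binds PUMILIO proteins, rose less, to 221, 181 and 192 RPKM in the A-H libraries against 89.0 to 119 RPKM (0.88, SE 0.07, adjusted p = 5.9e-06). OIP5-AS1 rose by 0.63 (adjusted p = 2.2e-05). In the clones NORAD (0.18, adjusted p = 0.513) and OIP5-AS1 (0.16, adjusted p = 0.578) did not pass. Of 10 nuclear and structural noncoding RNAs tested, 6 rose and 1 fell, with a median of 0.55 beside -0.15 for all genes. In the clones the medians were 0.17 and -0.11.

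Other noncoding rows differed in both directions. BCYRN1, a small cytoplasmic RNA of neurons and tumours, fell to 102, 65.4 and 113 RPKM in the A-H libraries, against 383, 587 and 741 RPKM as lowest, median and highest of the I-Z libraries (-2.58, SE 0.08, limma adjusted p = 2.03e-07). SNHG5, a host gene of small nucleolar RNAs, fell to 27.2, 26.4 and 30.0 RPKM, against 79.97 to 87.6 RPKM (-1.54, SE 0.07, adjusted p = 6.85e-07). Its relative SNHG12 rose (3.23, 3.18 and 3.07 against 0.947 to 1.37 RPKM, 0.94, SE 0.07, adjusted p = 6.25e-06), as did SNHG3 (0.77), while SNHG6 fell (-0.79). Of 16 snoRNA host genes tested, 4 rose (25.0%) and 6 fell (37.5%), beside 30.1% and 48.3% of all genes tested. Their median of -0.02 turned to 0.25 on the protein-coding total. RN7SL1, RN7SL2 and RN7SL3 carry the RNA of the signal recognition particle and are near-identical copies, so their split is uncertain. RN7SL1 stood at 76.6, 64.9 and 171 RPKM in the A-H libraries, highest in G, and at 56.9, 33.2, 55.4, 25.2, 25.7 and 17.8 RPKM in libraries I to N (1.51, SE 0.36, adjusted p = 0.00453, and 0.159 with no filter on low values). SCARNA9, a guide RNA of Cajal bodies, rose to 9.61, 8.67 and 6.93 RPKM, against 1.70 to 2.89 RPKM (1.55, SE 0.07, adjusted p = 7.56e-07). Of 22 small noncoding rows tested, 10 rose and 4 fell. Their median was 0.57, and by line it was 0.06, 0.27 and 1.12 in Empty, NES-Empty and NLS-Empty.

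Clone-named rows that differed most were RP5-857K21.9, RP5-857K21.10 and CTD-3099C6.9 on the higher side and CTB-13H5.1 and RP3-370M22.6 on the lower. They stand without a gene type here. RP5-857K21.10 reached 457, 417 and 405 RPKM in the A-H libraries, against 66.8 to 81.8 RPKM in the I-Z libraries (2.52, SE 0.08, limma adjusted p = 2.48e-07), and RP5-857K21.9 reached 166, 173 and 154 RPKM, against 18.1 to 24.9 RPKM. CTD-3099C6.9 differed by 2.71, CTB-13H5.1 by -2.30 and RP3-370M22.6 by -1.99. Row CH507-513H4.3 stood at 24744, 23175 and 24715 RPKM in the A-H and 2149.6, 8412, 14921, 14371, 14671 and 14008 RPKM in libraries I to N (1.33, SE 0.31, adjusted p = 0.00405). It was not called when no filter on low values was used (adjusted p = 0.649). ANXA2P2 and EEF1A1P5 are pseudogenes whose reads can belong to ANXA2 and EEF1A1. They differed by -2.21 and -1.97.

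As deposited, histone genes differed in both directions. Messages of the clustered HIST genes normally end in a stem-loop instead of a poly(A) tail. Of 62 listed, 20 were tested, 7 rose (35.0%) and 7 fell (35.0%), beside 30.1% and 48.3% of all genes tested. Their median of -0.10 turned to 0.23 on the protein-coding total. With the length and GC trend removed 14 of the 20 were higher and 1 lower (median 0.58). Among all protein-coding genes so treated 37.6% were higher and 37.2% lower. HIST1H2BD rose to 10.503, 11.4 and 15.3 RPKM in the A-H libraries, against 5.55 to 6.96 RPKM (0.88, SE 0.08, limma adjusted p = 1.31e-05), and HIST1H4J fell (-0.89, adjusted p = 0.000116; -0.24 and adjusted p = 0.0863 with the length and GC trend removed). HIST2H2AA3 and HIST2H2AA4 are identical copies, at 8.30, 5.65 and 7.14 and 1.51, 2.69 and 4.52 RPKM in the A-H libraries against 1.39 to 4.80 and 5.79 to 9.37 RPKM. Their opposite differences (1.03 and -1.296) are uncertain. Replication-independent histone genes, whose messages are polyadenylated, had 2 of 10 higher and 8 lower (median -0.59, and -0.02 with the length and GC trend removed). H2AFZ, a variant at promoters, fell to 51.0, 57.2 and 53.2 RPKM, against 135 to 162 RPKM (-1.45, SE 0.06, adjusted p = 6.85e-07), and H2AFX, the DNA damage variant, and CENPA, the centromeric variant, differed by -0.95 and -0.74. CENPA was not called with the trend removed (adjusted p = 0.0853).

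The protein-coding genes with the highest differences included genes of long transcripts. MKI67, the proliferation antigen that coats mitotic chromosomes, had 25.7, 30.9 and 27.7 RPKM in the A-H libraries and 1.03, 0.674, 2.43, 0.974, 1.14 and 1.31 RPKM in libraries I to N. The sets were apart by more than the spread within either, 22.3-fold in their means, with a log2 difference of 3.72 (SE 0.07) and a limma adjusted p of 7.85e-08. LAMA5, a laminin chain of basement membranes, had 28.3, 32.7 and 41.0 RPKM against 2.02, 1.69, 2.71, 1.58, 3.80 and 3.86 RPKM (3.31, SE 0.07, adjusted p = 1.03e-07). DST, a giant cytoskeletal linker, had 33.2, 28.5 and 24.6 RPKM against 2.06 to 3.01 RPKM (3.11, SE 0.10), and the Golgi coiled-coil genes GOLGA4 and GOLGB1 had 33.0, 31.7 and 29.1 and 12.9, 11.4 and 10.99 RPKM against 2.54 to 3.35 and 0.520 to 1.12 RPKM (3.02 and 2.91). PRRC2C, which encodes a large proline-rich protein, rose by 2.995 and NBPF14, of a family of near-identical copies and therefore uncertain, by 2.82. With the length and GC trend removed these differences were 3.20 for MKI67, 1.96 for LAMA5, 2.76 for DST, 2.77 for GOLGA4, 2.56 for GOLGB1 and 2.64 for PRRC2C.

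Other genes at the top differed between lines or encode proteins of epithelia and liver. MUC5AC, a gel-forming mucin, stood at 7.14, 5.62 and 16.2 RPKM in the A-H libraries and at 0.00413 to 0.127 RPKM in the I-Z libraries (3.21, SE 0.20, limma adjusted p = 2.17e-06). CREB3L3, a membrane-bound transcription factor best known from liver, stood at 7.47, 10.4 and 14.7 RPKM against 0.0751 to 0.638 RPKM (3.18, SE 0.13, adjusted p = 5.38e-07). MUC1, a transmembrane mucin, stood at 2.13, 19.2 and 15.9 RPKM, low in Empty, against 0.0848, 0.0635, 0.615, 0.398, 0.696 and 0.878 RPKM in libraries I to N. Its difference of 2.84 (SE 0.34, adjusted p = 7.32e-05) varied between lines (1.54, 3.75 and 3.24 in Empty, NES-Empty and NLS-Empty, interaction adjusted p = 0.0205). In the AURKA clones the 3 genes differed by 0.74, 0.95 and 0.62, with adjusted p of 0.0927, 0.0438 and 0.0676.

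**Figure D3:**
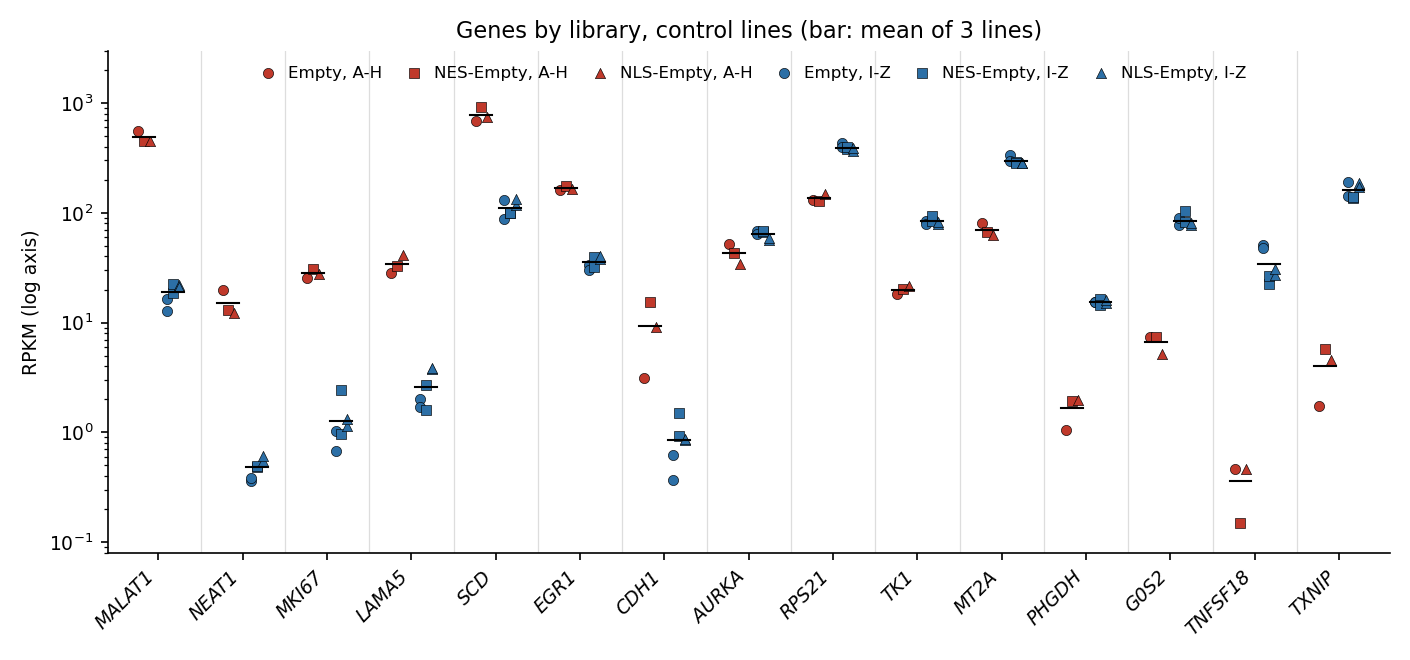
RPKM on a log axis of 15 genes in the 9 control libraries, with A-H libraries in red on the left of each gene, I-Z libraries in blue on the right, shapes for lines and bars for the mean of 3 lines. MALAT1 lies at 12.8 to 22.3 RPKM in I-Z libraries and above 450 RPKM in A-H libraries, while TXNIP lies at 1.74 to 5.80 RPKM in A-H and 137 to 189 RPKM in I-Z libraries.

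On the lower side TXNIP, an arrestin-like protein that binds thioredoxin and limits glucose uptake, differed most. It stood at 1.74, 5.80 and 4.60 RPKM in the A-H libraries of Empty, NES-Empty and NLS-Empty and at 142, 189, 137, 139, 186 and 174 RPKM in libraries I to N. The sets did not overlap, and its mean was 39.8-fold lower in the A-H libraries (-5.09, SE 0.23, limma adjusted p = 7.39e-07). ARRDC4, the arrestin-domain relative of TXNIP, fell to 0.121, 0.236 and 0.160 RPKM, against 2.50 to 3.59 RPKM (-1.76, SE 0.10, adjusted p = 1.43e-06). In the AURKA clones TXNIP differed by -3.04 (adjusted p = 0.00114) and ARRDC4 by -0.54 (adjusted p = 0.00876).

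TNFSF18, the ligand of the T-cell receptor GITR, fell to 0.465, 0.149 and 0.460 RPKM in the A-H libraries, against 51.1, 48.3, 22.5, 26.7, 26.9 and 30.9 RPKM in libraries I to N (-4.65, SE 0.13, limma adjusted p = 1.72e-07). The I-Z values were highest in Empty, and all lay above the A-H values. G0S2, an inhibitor of the lipase ATGL, fell to 7.33, 7.42 and 5.15 RPKM, against 76.7, 81.1 and 104 RPKM as lowest, median and highest (-3.50, SE 0.08, adjusted p = 1.03e-07). PHGDH, the entry enzyme of serine synthesis, fell to 1.04, 1.95 and 1.97 RPKM, against 14.6 to 16.2 RPKM (-2.66, SE 0.10, adjusted p = 4.86e-07). These 3 differences were -2.43, -1.34 and -1.85 in the AURKA clones, each past the threshold (adjusted p = 0.00509, 0.00908 and 0.00849). ROMO1, a small mitochondrial inner membrane protein, fell to 21.3, 20.8 and 25.5 RPKM, against 106 to 126 RPKM (-2.28). KISS1, which encodes kisspeptin, fell to 0.277, 0.593 and 0.843 RPKM, against 4.14 to 9.09 RPKM (-2.15, SE 0.08, adjusted p = 3.32e-07), and SRGN, the core of secretory granule proteoglycans, to 1.29, 2.56 and 0.891 RPKM, against 14.9, 12.9, 11.3, 16.97, 3.96 and 4.42 RPKM (-2.07, SE 0.19, adjusted p = 1.51e-05). EIF5AL1, a near copy of EIF5A and so uncertain, fell (-2.27).

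Metallothioneins, cysteine-rich proteins that bind zinc and copper, were lower in the A-H libraries. Of 9 genes of the list with a row, 5 were tested. The 4 metallothionein genes fell and SLC30A1, a zinc exporter on the same list, rose, with a median of -0.96. MT2A stood at 80.5, 66.3 and 63.1 RPKM in the A-H libraries and 335, 299.6, 290.1, 282, 283 and 287 RPKM in libraries I to N (-2.07, SE 0.07, limma adjusted p = 2.5e-07). MT1E stood at 21.9, 13.4 and 10.4 RPKM against 96.5, 78.5, 65.1, 69.1, 64.4 and 53.7 RPKM (-2.19, SE 0.09, adjusted p = 5.06e-07). MT1A stood at 2.24, 2.43 and 1.92 RPKM against 3.22 to 7.10 RPKM (-0.96, SE 0.07, adjusted p = 5.26e-06), and MT1X at 5.71, 3.76 and 3.89 RPKM against 6.97 to 11.2 RPKM (-0.77, SE 0.07, adjusted p = 1.11e-05). In none of the 4 did the sets overlap, which also held for 70.9% of all genes tested. These are short transcripts, and with the length and GC trend removed the differences were -1.42 for MT2A, -1.39 for MT1E and -0.20 for MT1A, while MT1X turned to 0.03 (adjusted p = 0.704). MT1 genes resemble each other closely, so the split among them is uncertain. The AURKA clones gave -0.75 for MT2A (adjusted p = 0.013), -0.82 for MT1E (adjusted p = 0.034) and 0.04 for MT1X (adjusted p = 0.859).

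Genes of translation and energy metabolism were lower in the A-H libraries nearly throughout. Cytosolic ribosomal protein genes held 6.27%, 5.98% and 6.10% of the RPKM sum in the A-H libraries and 9.02% to 9.84% in the I-Z libraries, and 7.17% to 7.66% against 9.97% to 10.52% of the protein-coding sum. Of 83 tested, 83 fell and 0 rose (median -0.89, -0.47 on the protein-coding total). RPS21 stood at 132, 127 and 148 RPKM in the A-H libraries and 368, 391.8 and 429.6 RPKM as lowest, median and highest of the I-Z libraries (-1.53, SE 0.08, limma adjusted p = 1.1e-06). RPS29, RPS9 and FAU, all of the small subunit, had similar differences (-1.56, -1.51 and -1.496). With the length and GC trend removed the list's median was -0.27, with 56 lower and 8 higher. The length used is that of the longest annotated coding transcript. For RPS29 this was 7062 bases, and its difference was -1.75 with the trend removed. Nuclear genes of the respiratory chain had 74 of 78 lower and 2 higher (median -0.93, -0.37 with the trend removed) and held 0.829% to 0.870% against 1.496% to 1.62% of the RPKM sum. CYC1, cytochrome c1 of complex III, fell to 27.9, 28.3 and 24.9 RPKM, against 71.3 to 102 RPKM (-1.70, SE 0.07, adjusted p = 5.82e-07), and UQCRH, of the same complex, to 40.6, 43.4 and 44.1 RPKM, against 124 to 138 RPKM (-1.61). ATP5G1, a subunit of ATP synthase, differed by -1.55, and COX7B2, of complex IV, by -1.60. No mitochondrially encoded messenger RNA has a row in the table (0 of 13).

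Proteasome genes, aminoacyl-tRNA synthetase genes and core spliceosome genes followed the same direction. Of 31 proteasome genes 30 fell and 0 rose (median -0.98, -0.47 with the length and GC trend removed). PSMA7, of the core ring, fell to 66.9, 69.6 and 71.8 RPKM in the A-H libraries, against 194 to 221 RPKM (-1.57, SE 0.07, limma adjusted p = 6.51e-07), and PSMC3, a base ATPase, to 48.9, 48.8 and 50.3 RPKM, against 119 to 128 RPKM (-1.31). All 23 of 23 genes of the synthetase list fell (median -0.69), with SARS, which charges serine tRNA, at 98.4, 103 and 103 RPKM against 181 to 198 RPKM (-0.89, SE 0.06, adjusted p = 4.44e-06). Among 26 core spliceosome genes 22 fell and 1 rose (median -0.71), led by the Sm protein genes SNRPG (-1.44), SNRPB (-1.42) and SNRPD2 (-1.41). SNRPB stood at 92.8, 95.0 and 99.96 RPKM against 240.5 to 279 RPKM. SR splicing factors and CLK kinases, by contrast, had 15 of 29 higher and 9 lower (median 0.27). SRRM2, a large scaffold of nuclear speckles, rose to 34.6, 31.1 and 31.8 RPKM, against 3.12 to 5.22 RPKM (2.66, SE 0.08, adjusted p = 2.06e-07), and CLK2, a kinase of SR proteins, to 5.43, 5.66 and 6.75 RPKM, against 1.74 to 2.61 RPKM (1.12). In the AURKA clones the medians of these 4 lists were -0.82, -0.59, -0.48 and 0.39.

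Cell cycle genes were lower in the A-H libraries, with exceptions among very long transcripts. Of 42 DNA replication genes 40 fell and 2 rose (median -0.98, -0.58 with the length and GC trend removed). TK1, thymidine kinase of S phase, fell to 18.3, 20.1 and 21.4 RPKM in the A-H libraries, against 84.9, 79.3, 84.5, 94.5, 78.9 and 82.2 RPKM in libraries I to N (-2.02, SE 0.07, limma adjusted p = 3.07e-07). TYMS, thymidylate synthase, fell to 18.6, 14.9 and 16.4 RPKM, against 44.4 to 52.6 RPKM (-1.46, SE 0.06, adjusted p = 6.85e-07), and FEN1, a flap nuclease, to 20.7, 19.7 and 20.9 RPKM, against 47.1 to 65.5 RPKM (-1.34). Of 40 mitosis genes 34 fell and 4 rose (median -0.80, -0.53 with the trend removed). BIRC5, the survivin subunit of the chromosomal passenger complex, fell to 12.4, 13.6 and 14.2 RPKM, against 42.3 to 48.6 RPKM (-1.69, SE 0.07, adjusted p = 6.67e-07). The genes of this list that rose most were MKI67 and the kinetochore genes CENPF, at 28.0, 37.3 and 31.0 RPKM against 3.53, 3.03, 6.82, 4.58, 4.35 and 5.71 RPKM (2.57, SE 0.08), and CENPE, at 8.50, 11.3 and 9.26 RPKM against 1.05 to 1.60 RPKM (2.21, SE 0.08). Their adjusted p were 1.72e-07 and 3.32e-07, and with the trend removed they still differed by 2.32 and 1.96. G1 cyclins and CDK inhibitors had 12 of 17 lower (70.6%) and 2 higher (11.8%), beside 48.3% and 30.1% of all genes tested (median -0.73). CCND3, a D-type cyclin, fell to 3.89, 4.25 and 5.27 RPKM, against 10.2 to 12.8 RPKM (-1.20), and CDK4, its kinase, to 20.9, 19.9 and 19.7 RPKM, against 41.2 to 47.3 RPKM (-1.11). In bulk RNA fewer cells in a phase and less RNA per cell cannot be told apart. Neither can be told from whatever else differs between the letter sets, and no cause was tested.

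Genes of large chromatin and scaffold proteins were higher. Of 39 tested 37 rose and 1 fell (median 1.06, 0.66 with the length and GC trend removed, 1.20 in the AURKA clones). AHNAK2, a giant scaffold, rose to 31.0, 29.5 and 31.1 RPKM in the A-H libraries, against 2.71 to 4.49 RPKM (2.75, SE 0.07, limma adjusted p = 1.64e-07). SPEN, a repressor in Notch signalling, rose to 13.03, 12.9 and 12.5 RPKM, against 0.879 to 1.46 RPKM (2.67, SE 0.07), and BPTF, a chromatin remodelling subunit, to 7.56, 7.79 and 7.06 RPKM, against 0.785 to 0.952 RPKM (2.18, SE 0.06). Zinc finger (ZNF) genes, most of them KRAB repressors of repeats, had 182 of 311 higher and 46 lower (median 0.26, 0.37 with the trend removed). ZNF460 rose to 8.97, 6.51 and 6.36 RPKM, against 0.803 to 1.13 RPKM (2.04, SE 0.10, adjusted p = 8.9e-07), and ZNF121 to 9.30, 8.51 and 7.88 RPKM, against 1.70 to 1.95 RPKM (1.76). Extracellular matrix and integrin genes had 21 of 28 higher and 4 lower (median 0.71, 0.47 with the trend removed). HSPG2, the basement membrane proteoglycan perlecan, rose to 7.498, 15.1 and 12.1 RPKM, against 0.585 to 1.25 RPKM (2.66, SE 0.10, adjusted p = 3.92e-07). LAMA3 rose to 12.1, 11.7 and 11.1 RPKM, against 0.877 to 1.32 RPKM (2.65), and the collagen gene COL4A2 to 28.9, 39.5 and 49.6 RPKM, against 4.46 to 9.39 RPKM (2.48). Lysosomal genes had 15 of 28 higher and 4 lower (median 0.19). TPP1, a lysosomal peptidase, rose to 27.3, 25.7 and 28.3 RPKM, against 6.28 to 8.66 RPKM (1.75, SE 0.06, adjusted p = 2.87e-07), and CTSD, cathepsin D, to 449, 585 and 679 RPKM, against 205 to 292 RPKM (1.16), while GLA, alpha-galactosidase, fell (-1.03).

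**Figure D4:**
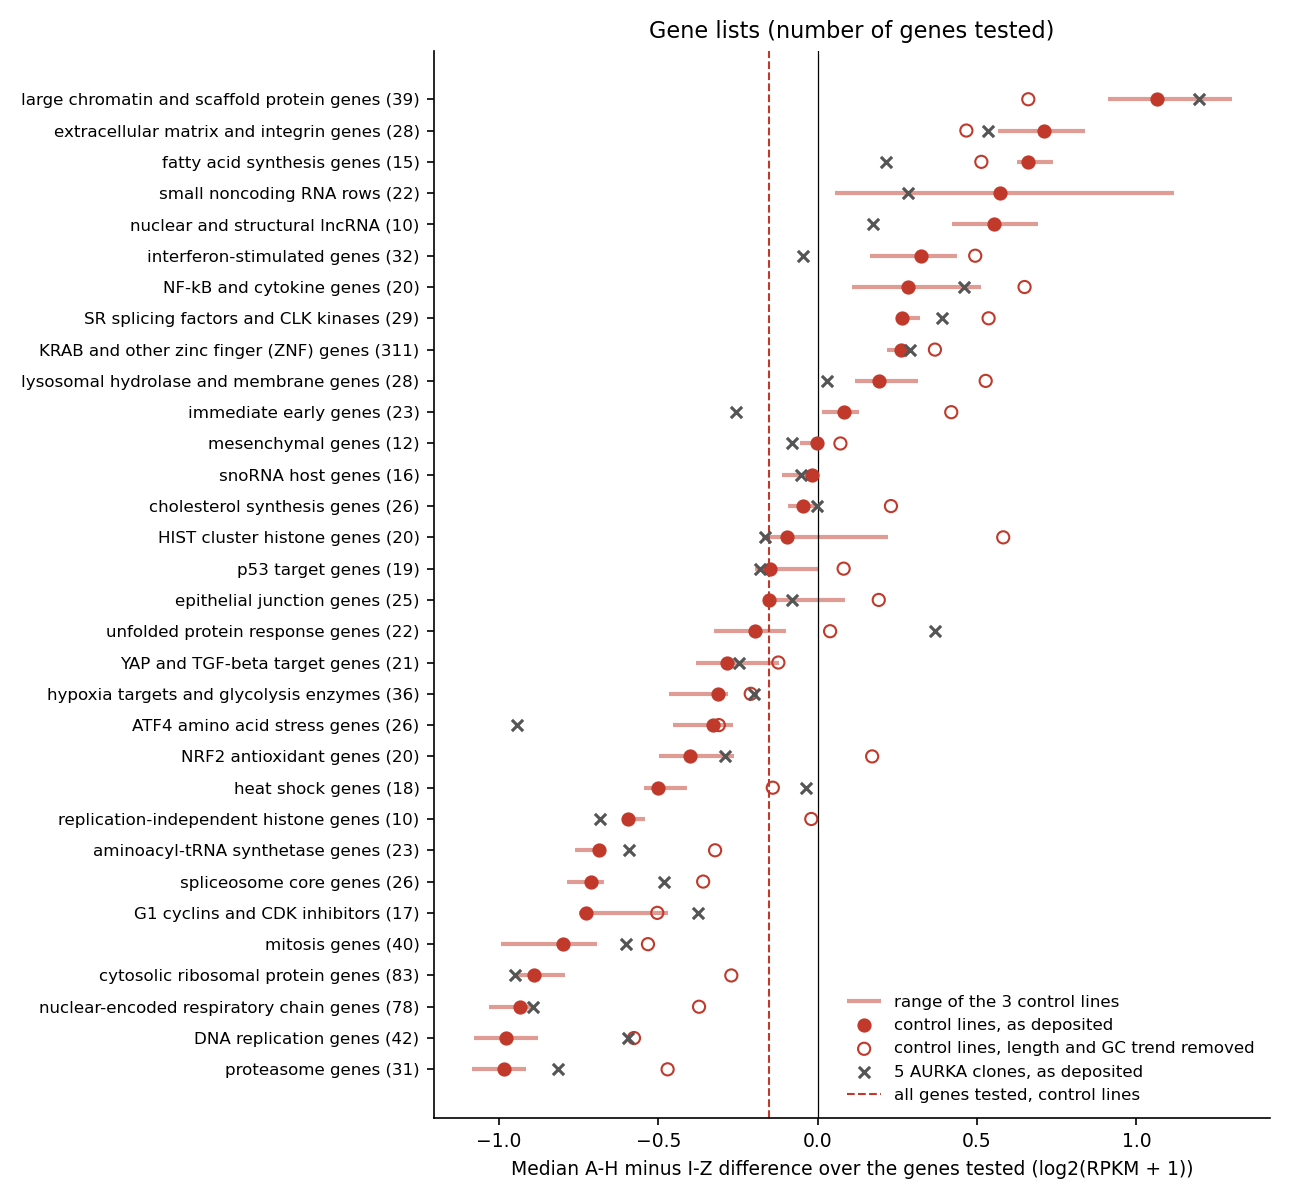
Median A-H minus I-Z difference (x axis, log2(RPKM + 1)) of each gene list with at least 10 genes tested (y axis, number tested in brackets). Filled circles are the control lines as deposited with the range of the 3 lines as a bar, open circles the control lines with the length and GC trend removed where at least 80% of members have a length, crosses the AURKA clones and the dashed line all genes tested at -0.15: medians run from -0.98 for proteasome genes to 1.06 for large chromatin and scaffold genes.

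Lipid synthesis was described in 2 lists. Fatty acid synthesis genes had 10 of 15 higher and 4 lower in the A-H libraries (median 0.66, 0.51 with the length and GC trend removed). SCD, which puts the double bond into stearate, rose to 690.2, 916 and 749 RPKM, against 88.0, 129.8, 98.9, 99.7, 119 and 134 RPKM in libraries I to N. No I-Z library reached an A-H value (2.81, SE 0.11, limma adjusted p = 5.41e-07). SREBF1, which encodes the master factor of the pathway, rose to 22.7, 31.4 and 28.7 RPKM, against 6.89 to 8.50 RPKM (1.69, SE 0.08, adjusted p = 9.39e-07). ACSL1, an acyl-CoA synthetase, rose to 25.8, 36.3 and 24.7 RPKM, against 8.26 to 10.8 RPKM (1.52), and FASN, fatty acid synthase, to 60.4, 56.3 and 46.4 RPKM, against 12.5 to 17.6 RPKM (1.77, 0.42 with the trend removed). In the AURKA clones SCD, SREBF1 and ACSL1 differed by 0.38, 0.31 and 0.03 (adjusted p = 0.704, 0.539 and 0.96), and FASN by 1.56 (adjusted p = 0.00913). The difference between control lines and AURKA clones did not pass for SCD (adjusted p = 0.43). Cholesterol synthesis genes had 6 of 26 higher and 9 lower, and their median of -0.05, above that of all genes, turned to 0.35 on the protein-coding total. With the length and GC trend removed 17 of the 26 were higher and 7 lower (median 0.23). The 2 lists were not tested against each other. ACAT2, a thiolase, fell to 3.83, 4.33 and 3.45 RPKM, against 10.6 to 12.5 RPKM (-1.36), as did PMVK (-1.24) and FDPS (-0.81) of the mevalonate pathway.

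Stress and nutrient programs gave mixed counts, to be read beside the 30.1% higher and 48.3% lower of all genes tested. Of 26 genes of the ATF4 amino acid response 18 fell and 6 rose (median -0.33). The median was 0.08 on the protein-coding total, beside 0.19 for all genes. With the length and GC trend removed it was -0.31, with 16 lower and 8 higher. The serine pathway gene PSAT1 fell to 112, 107 and 98.8 RPKM in the A-H libraries, against 253 to 295 RPKM (-1.37, SE 0.06, limma adjusted p = 6.97e-07), ASNS, asparagine synthetase, to 54.1, 61.3 and 58.6 RPKM, against 154 to 187 RPKM (-1.49, SE 0.08, adjusted p = 1.08e-06), and MTHFD2, of mitochondrial folate metabolism, differed by -1.05. Glycolysis and hypoxia genes had 22 of 36 lower (61.1%) and 9 higher (25.0%), with a median of -0.31 (0.05 on the protein-coding total). With the length and GC trend removed the median was -0.21, with 18 lower and 10 higher. LDHA, lactate dehydrogenase, fell to 93.2, 132 and 117 RPKM, against 228 to 311 RPKM (-1.26, SE 0.11, adjusted p = 1.17e-05), and PKM, PGAM1 and TPI1 differed by -1.21, -1.38 and -1.16. Heat shock genes had 12 of 18 lower and 3 higher (median -0.50, -0.14 with the length and GC trend removed). HSPA8, a constitutive HSP70, fell to 286, 248 and 281 RPKM, against 421 to 551 RPKM (-0.83). The unfolded protein response list had 6 of 22 higher (27.3%) and 12 lower (54.5%), near the shares of all genes (median -0.20, 0.21 on the protein-coding total). SDF2L1, an endoplasmic reticulum chaperone cofactor, fell to 3.40, 2.35 and 4.204 RPKM, against 9.21 to 11.3 RPKM (-1.39, SE 0.11, adjusted p = 7.91e-06), while the ubiquitin ligase gene SYVN1 (1.02), the stress sensor gene ERN1 (0.96) and EDEM1 (0.85) rose. NRF2 antioxidant genes had 11 of 20 lower and 4 higher (median -0.40, 0.17 with the trend removed). PRDX1 and TXN, of the peroxiredoxin and thioredoxin systems, differed by -1.28 and -1.14, and the transporter gene ABCC3 rose to 9.09, 14.3 and 15.2 RPKM, against 1.89 to 3.19 RPKM (1.96). Of 19 p53 targets 7 rose and 10 fell, with a median of -0.15, close to that of all genes, that turned to 0.24 on the protein-coding total. CCNG1 (-1.35) and the nuclease gene AEN (-1.04) fell, and PHLDA3 (0.89) and XPC (0.68) rose.

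Immediate early and inflammatory genes contained several of the higher genes. EGR1, a serum-induced transcription factor, rose to 163, 175 and 164 RPKM in the A-H libraries, against 33.2, 29.8, 39.8, 31.8, 38.2 and 40.8 RPKM in libraries I to N (2.21, SE 0.07, limma adjusted p = 2.87e-07). JUN, of the AP-1 factor, rose to 40.7, 51.1 and 46.0 RPKM, against 15.5 to 20.2 RPKM (1.31, SE 0.07), and JUNB to 33.3, 45.7 and 41.1 RPKM, against 16.1 to 21.9 RPKM (1.05, SE 0.06), while DUSP1, a MAP kinase phosphatase, fell to 94.2, 112 and 101 RPKM, against 179 to 229 RPKM (-0.99, SE 0.09). Of 23 immediate early genes 10 rose and 7 fell (median 0.08). In the AURKA clones JUN differed by 1.07 (adjusted p = 0.0035) and DUSP1 by -1.92 (adjusted p = 0.00118). EGR1 (0.35, adjusted p = 0.552) and JUNB (0.07, adjusted p = 0.885) did not pass there. Of 20 genes of NF-kB signalling and cytokines, 11 rose and 4 fell (median 0.28). The chemokine genes CXCL1 and CXCL2 rose, with CXCL2 at 4.98, 14.6 and 11.7 RPKM against 1.40 to 2.15 RPKM (1.95, SE 0.18, adjusted p = 1.73e-05). CXCL1 stood at 0.917, 7.74 and 6.01 RPKM against 0.273 to 0.761 RPKM (1.74, SE 0.36, adjusted p = 0.00197, and 0.117 with no filter on low values). Both were lowest in Empty within the A-H set. NFKBIZ, a nuclear inhibitor of the IkB family, rose (1.64), and IL11, a cytokine of the IL6 family, fell to 4.97, 3.82 and 4.99 RPKM, against 16.8 to 25.7 RPKM (-1.99, SE 0.07, adjusted p = 3.55e-07). In the clones CXCL1 (1.82, adjusted p = 0.00607) and NFKBIZ (0.98, adjusted p = 0.0452) passed. CXCL2 (0.47, adjusted p = 0.527) and IL11 (-0.32, adjusted p = 0.372) did not. Interferon-stimulated genes had 21 of 32 higher and 5 lower (median 0.33 in control lines, -0.05 in the AURKA clones). IFITM1, which blocks virus entry, rose to 12.2, 18.5 and 16.5 RPKM, against 3.64 to 6.78 RPKM (1.5001, SE 0.11, adjusted p = 4.42e-06), PARP14 to 8.30, 9.17 and 9.78 RPKM, against 2.68 to 3.81 RPKM (1.31), and the helicase gene DDX60 to 4.09, 7.27 and 6.27 RPKM, against 1.51 to 3.46 RPKM (1.10).

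Genes that mark cell identity moved gene by gene. Epithelial junction genes had 9 of 25 higher (36.0%) and 11 lower (44.0%), near the 30.1% and 48.3% of all genes tested. Their median of -0.15, the value of all genes, turned to 0.19 on the protein-coding total. CDH1, which encodes E-cadherin and is low in this mesenchymal-like line, stood at 3.14, 15.5 and 9.04 RPKM in the A-H libraries of Empty, NES-Empty and NLS-Empty. In libraries I to N it stood at 0.615, 0.369, 1.501, 0.934, 0.857 and 0.862 RPKM. The sets did not overlap (2.27, SE 0.22, limma adjusted p = 2.06e-05), and the difference was smallest in Empty (1.48, 2.90 and 2.43 in the 3 lines). SPINT1, a serine protease inhibitor of epithelia, rose to 10.3, 24.6 and 23.5 RPKM, against 2.93 to 5.34 RPKM (1.88, SE 0.13, adjusted p = 3.65e-06), and the desmosomal plakin gene DSP to 43.3, 44.7 and 40.5 RPKM, against 14.2 to 18.7 RPKM (1.40). TJP1, a tight junction scaffold, rose by 0.81. Mesenchymal genes had 4 of 12 higher (33.3%) and 5 lower (41.7%), also near the shares of all genes (median 0.00, 0.30 on the protein-coding total). AXL fell to 261, 269.9 and 258 RPKM, against 430.0 to 484 RPKM (-0.81, SE 0.07, adjusted p = 1.1e-05), VIM to 255, 236 and 251 RPKM, against 329 to 375 RPKM (-0.51, and -0.09 with adjusted p = 0.17 on the protein-coding total), while the membrane protease gene MMP14 rose (0.69). LOX, a collagen cross-linking enzyme, had a difference of -0.38, which turned to 0.01 (adjusted p = 0.843) on the protein-coding total. Targets of YAP and TGF-beta had 5 of 21 higher (23.8%) and 10 lower (47.6%), near the shares of all genes (median -0.29, 0.06 on the protein-coding total). CTGF fell to 44.0, 52.9 and 45.3 RPKM, against 104 to 125 RPKM (-1.20, SE 0.08), and PMEPA1 and LTBP2 rose (1.40 and 1.14). ID3, an inhibitor of helix-loop-helix factors, fell to 4.82, 11.7 and 9.26 RPKM, against 32.7 to 38.0 RPKM (-1.98, SE 0.19, adjusted p = 2.22e-05).

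Marker lists of the tumour line and of other cells moved too. All 8 MDA-MB-231 markers fell as deposited (median -0.54, -0.12 on the protein-coding total), with LGALS1 at 111, 121 and 129.6 RPKM in the A-H libraries against 362 to 414 RPKM (-1.69, SE 0.07, limma adjusted p = 5.22e-07) and the caveolin gene CAV1 at 45.6, 62.1 and 54.4 RPKM against 112 to 134 RPKM (-1.20). Luminal markers summed to 194 to 236 RPKM in the A-H and 288 to 316 RPKM in the I-Z libraries, nearly all of it from genes that this line expresses, such as KRT8 (47.7, 53.4 and 58.2 against 74.9 to 84.6 RPKM, -0.58). TFF1, a secreted trefoil peptide of luminal cells, rose to 6.96, 14.5 and 19.9 RPKM, against 2.66 to 6.21 RPKM (1.305, SE 0.12, adjusted p = 1.85e-05), and ERBB3 rose by 0.79. Of 8 leukocyte markers with a row, 7 stayed under 1 RPKM in every control library. CD68, a lysosomal protein that tumour cells also make, was the remaining marker, at 48.8, 50.2 and 49.3 RPKM against 27.2 to 39.9 RPKM (0.54). Endothelial markers had 3 of 9 tested and summed to 22.0 to 24.5 RPKM in the A-H and 31.0 to 33.8 RPKM in the I-Z libraries, most of it ESAM (18.3, 20.7 and 18.9 against 27.3 to 29.5 RPKM, -0.54, but 0.019 with the length and GC trend removed). The fibroblast list summed to 0.456 to 1.85 RPKM and 0.561 to 1.28 RPKM, with LUM the remaining tested gene (-0.16, adjusted p = 0.307), and the erythroid list to at most 0.202 RPKM in A-H and 0.161 RPKM in I-Z libraries. The part of other cells in the results was not tested. Their lists held both members under 0.1 RPKM and members well above it, as given above.

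The AURKA clones, sequenced in the same 2 letter sets, showed much of the same difference. In the 5 clones 5628 of the 11404 genes were called (49.4%), 2208 higher in the A-H libraries (19.4%) and 3420 lower (30.0%). The balance turned to 4434 higher and 1054 lower on the protein-coding total, and to 3255 higher and 2583 lower with no filter on low values. Of the genes called in control lines 58.5% were called in the same direction in the clones, and of those called in the clones 93.0% were called in the same direction in control lines. That is 5233 genes, against 32 called in opposite directions. The log2 differences correlated across genes (Pearson's r = 0.877). The 2 comparisons share no library, but genes are not independent replicates. Of the 1290 genes that differed by 1 or more in control lines, 1026 kept the sign in all 5 clones. MKI67 had a difference of 3.65 in the clones (limma adjusted p = 0.000618), GOLGA4 of 2.99, SRRM2 of 2.69 and RPS21 of -1.44, each near the value of the control lines. Other genes were not near it, among them EGR1 (0.35 beside 2.21) and IL11 (-0.32 beside -1.99), neither called in the clones. The difference between control lines and clones did not pass for these 2 (adjusted p = 0.334 and 0.186). List medians in the clones were -0.95 for ribosomal protein genes, -0.89 for respiratory chain genes and 0.29 for ZNF genes. Some lists had medians further apart, among them the ATF4 response (-0.33 in control lines, -0.94 in the clones), the unfolded protein response (-0.20 and 0.37) and immediate early genes (0.08 and -0.26). Whether list medians differ between lines was not tested.

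The difference between the A-H minus I-Z differences of control lines and clones was tested gene by gene and passed for 28 genes (0.246%), 24 with the higher value in control lines and 4 with the lower. At an unadjusted p under 0.05 there were 1356 genes. Genes were filtered on the control libraries alone, so a gene silent in the clones could enter through high control values. NMRK2 and IGFL1P1, for example, had a difference of 0 in all 5 clones. The split of 24 to 4 is therefore not read as a result about the lines. CDH1 led the higher side, with 2.21 (SE 0.29, limma adjusted p = 0.0211). In the clones CDH1 stood at 0.0260, 0.0344 and 0.616 RPKM as lowest, median and highest of 5 A-H libraries and at 0, 0.0773 and 0.162 RPKM in 10 I-Z libraries. PSG7, of the pregnancy-specific glycoproteins, stood at 5.69, 6.35 and 3.72 RPKM in the A-H libraries of the control lines, against 0.278 to 0.716 RPKM in their I-Z libraries (2.09, SE 0.10, adjusted p = 1.05e-06), and differed by 0.09 in the clones (2.002 for the difference, adjusted p = 0.00149). In the clones PSG7 was near the floor in both sets, at 0.0120 to 0.254 RPKM in the A-H and 0 to 0.0711 RPKM in the I-Z libraries. Of 9 PSG genes tested 6 passed this test, PSG1, PSG3, PSG5, PSG7, PSG8 and PSG9. They are near-identical copies, so the split among them is uncertain, though all 6 were higher in each control line. The clone-named row AC006262.5 was at 38.6, 35.4 and 35.9 RPKM against 7.69 to 10.4 RPKM in control lines (1.95, adjusted p = 0.00661). On the lower side were ARRDC4 (-1.22, adjusted p = 0.0377), the deubiquitinase gene OTUB2 (-1.03, adjusted p = 0.0293) and the water channel gene AQP5 (-0.71, adjusted p = 0.0474). With a pseudocount of 0.1 in place of 1 no gene passed (0, with 1264 at an unadjusted p under 0.05), so these calls rest on the scale chosen. The differences of CDH1, ARRDC4, OTUB2 and AQP5 kept their sign and were larger there, 3.035 for CDH1 and -2.117 for ARRDC4. With no filter on low values their sizes were the same, and CDH1 (adjusted p = 0.078), ARRDC4 (0.107), OTUB2 (0.0587) and AQP5 (0.0587) did not pass. On the protein-coding total ARRDC4 (adjusted p = 0.0551) and AQP5 (0.204) did not, nor on median ratios (0.055 and 0.0916), nor AQP5 with the length and GC trend removed (0.0787).

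**Figure D5:**
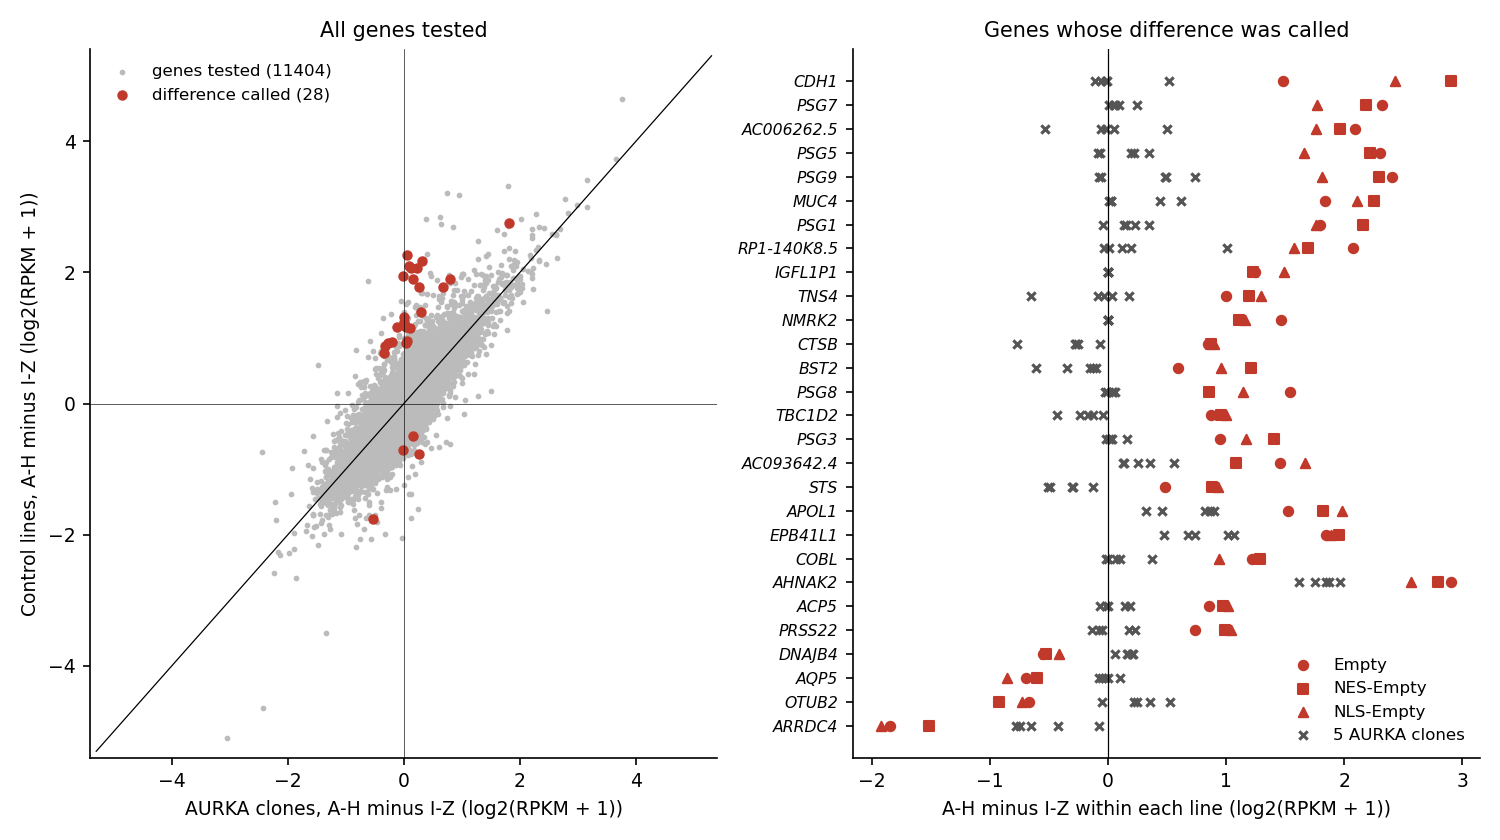
A-H minus I-Z differences on the log2(RPKM + 1) scale. The left panel plots control lines (y axis) against AURKA clones (x axis) for the 11404 genes tested, with the 28 genes whose difference was called in red and the line of equal values, and the right panel gives these 28 genes within each line: control lines are red symbols and AURKA clones grey crosses, and CDH1 lies at 1.48 to 2.90 in control lines.

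The size of the set difference was called different between control lines for few genes. The interaction of line and letter set, judged against the spread of the I-Z library pairs, passed for 9 genes (0.0789%), with 1517 at an unadjusted p under 0.05. CXCL8, a neutrophil chemokine, stood at 8.93, 29.5 and 25.8 RPKM in the A-H libraries and 13.4, 12.6, 10.1, 11.1, 12.5 and 11.6 RPKM in libraries I to N, so that it was lower in the A-H library of Empty and higher in those of NES-Empty and NLS-Empty (-0.50, 1.40 and 1.04, interaction limma adjusted p = 0.00709). The mean difference of the 3 lines did not pass (adjusted p = 0.0712), and was 1.22 (adjusted p = 3.39e-08) without Empty. CXCL8 also passed with a filter of 5 RPKM (adjusted p = 0.0259), on the protein-coding total (0.0136), on median ratios (0.0421), with the trend removed (0.00538) and with 9 libraries as 9 values (0.0431). C3, the central complement component, stood at 0.283, 4.01 and 5.42 RPKM against 0.00800 to 0.0886 RPKM (0.33, 2.28 and 2.60, adjusted p = 0.00709). RNVU1-7, a variant U1 small nuclear RNA with near-identical copies, stood at 0.350, 0.325 and 5.76 RPKM, high in library G alone, against 0.000769 to 1.44 RPKM (0.06, -0.81 and 2.61, adjusted p = 0.00709). With a pseudocount of 0.1 in place of 1 the interaction passed for 6 genes. It then did not pass for C3 (limma adjusted p = 0.215) or RNVU1-7 (0.159), so these 2 calls rest on the scale chosen. The other 6 of the 9 genes were MUC1, SFTPB, DDIT4, ID3, TRNP1 and SLPI. The inhibitor gene SLPI differed by -1.86, -0.38 and -0.08 in Empty, NES-Empty and NLS-Empty, and SFTPB, a surfactant protein gene, by 0.49, 2.35 and 1.82. Each line has 1 A-H library, which this test takes to vary as an I-Z library does.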

How the data were processed

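Polyadenylated RNA was sequenced from 500 ng of total RNA per library (RNeasy columns, KAPA mRNA Hyper Prep), per the labels' protocols. The submitters' processing notes name HISAT2, SAMtools, Partek and hg19, and the sources used here do not give versions, the annotation or the strand setting. The deposited values are RPKM for 33562 rows, scaled by the authors to length and library size. The unit was inferred from the values. Of 186953 values above 0 in control libraries, 4.82% lay under 1e-04. Overlapping and antisense genes cannot be told apart without the strand setting.

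Values were set to log2(RPKM + 1), so that differences of low genes are understated. Libraries of a line within a set were averaged, and limma 3.58.1 (R 4.3.3) with a trend fitted A-H minus I-Z with the line as a block, since same-line libraries form the pairs, on 3 control lines and separately on 5 AURKA clones. Benjamini-Hochberg adjusted p under 0.05 over 11404 genes was a call. The difference between control lines and clones was fitted on within-line differences, and the interaction of line and set on 9 libraries. Every value with an SE or adjusted p comes from these fits or from the same fits under the alternatives named below. The exception is the adjusted p of the library-level quantities, which comes from the permutation test. The scripts were tested on simulated data. Symbols matched the annotation for 20324 rows, 13184 rows are clone-named, and length and GC content were known for 10359 of the 10365 protein-coding genes tested. Length and GC content were those of the longest annotated coding transcript, which need not be the one expressed. The removal of the length and GC trend subtracted, within each library, the median of 10 length bins by 5 GC bins. The mean chi-square per gene between the 2 I-Z libraries of a line was 1.79 to 2.92, where counting noise gives about 1, and the median 0.481 to 0.741. No pair was identical, and every library was kept as its own.

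The members, taken by title, and the gene lists were chosen with earlier results of these data known. Named genes were AURKA, MALAT1, NEAT1, CDH1 and CH507-513H4.3, the 10 highest and 10 lowest called protein-coding genes averaging 5 RPKM or more in the higher set and 1 sign in 3 lines, the 5 highest and 5 lowest others, the 4 largest of each list, the 3 highest and 3 lowest of the difference to the clones, and the 3 of smallest interaction p. SFTPB and SLPI, and the names of the other interaction and PSG genes, were added after their values were seen. Alternatives were a pseudocount of 0.1, no filter and a filter of 5 RPKM, 2 rescalings, no variance trend, no block, 9 libraries as 9 values, and leaving out each line or I-Z library. The removal of the length and GC trend was chosen after seeing the data. Some listed genes are not reported here.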

Additional observations from a re-analysis of the deposited data

Results flagged for a closer look

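Among sets of 6 I-Z control libraries, 13 of 190 values examined had 1 library far from the others by Dixon's criterion (critical value 0.625), where chance flags about 1 in 20. Library I was the one apart in 5 of them, with EIF5AL1 at 9.163 RPKM, MT2A at 335.3 RPKM, CCNL2, a cyclin of nuclear speckles, at 3.435 RPKM, MT1X at 11.24 RPKM and CTGF at 125.5 RPKM. Library J was apart in 4, with 10288 rows at or over 1 RPKM (10290 to 4 digits), ASNS at 186.8 RPKM, CCNG1 at 20.92 RPKM and LUM at 0.3984 RPKM. In library K the values apart were MKI67 at 2.426 RPKM and SRRM1, a splicing coactivator, at 5.527 RPKM. Library M was apart for C3 at 0.08855 RPKM and library N for CTD-3099C6.9 at 1.616 RPKM.

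The A-H minus I-Z difference itself differed between control lines and AURKA clones for genes named by rule. Control lines exceeded the clones by 2.209 on the log2 scale for CDH1, 2.002 for PSG7 and 1.948 for AC006262.5. These 3 were near the floor in the clones, with medians of 0.0344, 0.0717 and 0.0607 RPKM in their A-H libraries. The differences to the clones were -1.224 for ARRDC4, -1.03 for OTUB2 and -0.7052 for AQP5, lower in control lines. Within the control lines the set difference spanned 1.896 for CXCL8, 3.414 for RNVU1-7 and 2.265 for C3 between the lines with the highest and lowest difference.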

How the results depend on the processing

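Called genes in control lines numbered 8946 in the design described. With a filter of 5 RPKM there were 5899, of which 1640 were higher, from 6937 genes tested. Rescaling to the protein-coding sum gave 5769 higher and 2973 lower. Without the replicate block, that is without pairing by line, 8506 were called (3232 higher, 5274 lower). Leaving out a line or an I-Z library gave 8107 to 8902 calls, 3040 to 3426 higher and 5031 to 5492 lower. Leaving out a clone gave 3997 to 6060 calls in the AURKA clones, where the protein-coding sum gave 4434 higher and 1054 lower.

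The difference between control lines and clones gave 28 genes, 0 with a pseudocount of 0.1 (1264 at an unadjusted p under 0.05) and 14 with a filter of 5 RPKM. The interaction of line and set gave 9 genes, and 6 with a pseudocount of 0.1. With no filter on low values it gave 4921, of which 4534 were under the 1 RPKM filter. It gave 16 with a filter of 5 RPKM and 31 with the length and GC trend removed. The cause of these shifts was not tested.

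Of 3130 values of 176 named genes under alternatives, 3090 kept direction and side of the threshold, 20 lost the call, 11 gained it and 9 changed sign. Sign changed with the length and GC trend removed for H2AFJ (0.046), MT1X (0.030), XBP1 (0.0054), ESAM (0.019) and LUM (0.113), and on the protein-coding sum for LOX (0.013) and LUM (0.011). With a line or library left out LUM ran from -0.3597 to 0.031, above 0 without Empty, and RNVU1-7 from -0.38 to 1.33, below 0 without NLS-Empty. With no filter the adjusted p of limma was 0.649 for CH507-513H4.3, 0.159 for RN7SL1, 0.117 for CXCL1, 0.118 for C3 and 0.078 for the CDH1 difference to the clones. List medians kept their sign under every alternative in 24 of 38 lists.

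Each line has 1 A-H library, and 3 pairs set the precision. A single read on 1 kb is worth 0.0492 to 0.0721 RPKM, which limits values below about 1 RPKM. The letter sets and whatever the letters stand for cannot be told apart.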
